A study of Mus musculus with 4 samples.

Results

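Histone genes of the clusters Hist1 to Hist4 were measured in C2C12 cells, a mouse myoblast line, differentiated with or without GDF8. They were taken as every probe, other than control spots, whose gene name in the array files begins with Hist1h, Hist2h, Hist3h or Hist4h. This rule found 47 probes of 36 gene names among 41174 probes. It used no measured value, but it was chosen with earlier results of these data known. The labels of both groups give the same cell line, growth in 10% fetal bovine serum and 6 days of differentiation, and no genetic change. One group received 20 nM GDF8 (recombinant mouse myostatin) every 24 h for those days, and the other was untreated. The horse serum of the differentiation medium is given as 2% in the growth protocol and as 10% in the source names. Each of 4 two-colour arrays compared 1 GDF8 RNA with 1 untreated RNA. GDF8 RNA carried the green dye Cy3 on arrays 1 and 4 and the red dye Cy5 on arrays 2 and 3, where array numbers are the labels' biological replicates. The labels call arrays 1 and 4 dye swaps without saying of which arrays, so whether the 4 arrays hold 4 pairs of RNAs or fewer was not settled. How the cultures of these replicates were kept apart is not given in the sources used here. The main fit takes a dye term for each probe. Its p-values and standard errors therefore measure only the spread between arrays of the same dye orientation, which may be technical. The comparison asks how the presence of GDF8 during differentiation goes with the RNA level of each histone gene.

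Replication-dependent histone genes supply the protein that packs new DNA. They have no introns, lie in clusters and are transcribed mainly in S phase, and their mRNA ends in a stem-loop held by the protein SLBP in place of a poly(A) tail. H2A, H2B, H3 and H4 form the core of the nucleosome, and H1 is the linker histone that binds where DNA enters and leaves it. Myoblasts leave the cell cycle as they form myotubes, and myostatin, a ligand of the TGF-beta family, is known as a brake on muscle growth and differentiation. Some genes in the clusters are used mainly in the testis, and others give partly polyadenylated mRNA in cells that no longer divide. Whether mRNA with and without a poly(A) tail was labelled alike on these arrays was not tested. The copies of a class are nearly identical, so which copy a probe read is uncertain throughout, and the symbols below name the probe's design target.

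The promoters of the genes whose probes rose, and of 1 H2B gene lying among them whose probe did not pass, are shown so that they can be set beside the values. They are the 150 bases before the annotated start, 5′ to 3′ on the gene's own strand, from RefSeq on GRCm38.p6, all on chromosome 13. Capitals mark matches, on either strand, to the CCAAT box (CCAAT, or ATTGG when read on the printed strand), the octamer of H2A and H2B promoters (ATTTGCAT), the TATA box (TATAAA) and the element of H1 promoters (AAACACA). No motif of these holds the letters of another.
H2ac15 (Hist1h2ak), chr13:21753913-21754062, minus strand: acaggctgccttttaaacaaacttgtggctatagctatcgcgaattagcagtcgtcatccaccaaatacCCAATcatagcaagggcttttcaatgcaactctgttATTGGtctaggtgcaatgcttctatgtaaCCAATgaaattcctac
H2ac13 (Hist1h2ai), chr13:21716262-21716411, plus strand: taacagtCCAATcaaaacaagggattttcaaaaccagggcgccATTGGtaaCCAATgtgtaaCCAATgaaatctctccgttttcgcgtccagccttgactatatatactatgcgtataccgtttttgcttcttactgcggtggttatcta
H1f5 (Hist1h1b), chr13:21780626-21780775, minus strand: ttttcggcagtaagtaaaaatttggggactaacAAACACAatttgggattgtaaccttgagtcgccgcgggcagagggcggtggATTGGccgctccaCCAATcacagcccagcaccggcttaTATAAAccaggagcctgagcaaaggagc
H2ac10 (Hist1h2af), chr13:23533725-23533874, plus strand: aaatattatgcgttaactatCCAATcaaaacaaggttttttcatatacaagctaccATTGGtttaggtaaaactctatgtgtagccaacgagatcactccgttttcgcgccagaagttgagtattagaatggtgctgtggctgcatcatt
H2bc14 (Hist1h2bm), chr13:21721894-21722043, plus strand: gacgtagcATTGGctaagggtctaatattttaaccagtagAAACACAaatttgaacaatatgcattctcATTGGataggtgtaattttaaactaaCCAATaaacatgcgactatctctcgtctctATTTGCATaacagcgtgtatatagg

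These 5 windows all hold the CCAAT box, with 4 matches in H2ac13, 3 each in H2ac15 and H2bc14, and 2 each in H1f5 and H2ac10. The octamer was found in H2bc14 alone of these, the TATA box in H1f5 alone, and the H1 element in H1f5 and H2bc14. The RefSeq table held 31 of the 36 member symbols, with 32 promoters. CCAAT was present in 28 of the 32 (87.5%), against 24.5% of all 32851 promoters in windows of the same length. TATAAA was present in 14 (43.8%, against 7.57%). The octamer was in 9 (28.1%, against 0.998%): in 5 of 11 H2A and 4 of 8 H2B promoters and in none of the H1, H3 and H4 promoters. AAACACA was in 8 (25%, against 3.53%), among them 5 of 6 H1 promoters. A match describes letters only, and a missing match says nothing of a factor. In the table, the windows of H2ac13 and H2ac15 overlap on the opposite strand with those of the H2B genes H2bc13 and H2bc15, neither of which had a probe among the members.

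After differentiation in GDF8, RNA read by 4 histone probes was higher, and none was lower. They were 3 H2A probes, designed for Hist1h2ak, Hist1h2ai and Hist1h2af, and the probe of the linker histone gene Hist1h1b, by 2.13-fold to 2.40-fold. All lie in the Hist1 cluster. None was saturated, that is, at the top of the scanner's range of brightness, where a difference between RNAs can no longer be read. The other 39 of the 43 probes tested did not pass the threshold, an adjusted p under 0.05 from limma over all 26579 probes tested. At an unadjusted p under 0.05, 16 members were higher and 1 was lower, against 5.47% and 6.69% of all probes. To be tested, a probe had to be well above background on every array in the GDF8 channel or on every array in the untreated channel, as 43 member probes of 33 genes were. Of all probes tested, 0.771% were higher and 1.95% lower (2.72% either way), so that 4 of 43 is a larger share than the background for higher probes. Probes of nearly identical copies need not be separate readings, so this share is a description only. Each value is the log2 of GDF8 over untreated, normalised within its array, and ± is limma's standard error over 4 arrays. More cells of a kind, such as cells in S phase, and more RNA in each cell cannot be told apart in such bulk samples.

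The H2A probe of Hist1h2ak (current symbol H2ac15, A_52_P498208) gave ratios of 1.15, 0.59, 1.05 and 2.27 on arrays 1 to 4. Array 4 stood highest and array 2 lowest, and no array was near 0. The fitted ratio was 1.27 ± 0.18, or 2.40-fold higher (limma, adjusted p = 0.0177). Its log2 intensity with GDF8 was 13.46, 13.30, 13.14 and 14.20, and without it 12.31, 12.70, 12.10 and 11.94. These intensities were normalised within arrays but not between them. The lowest GDF8 level lay above the highest untreated level, and array 4 had both the highest GDF8 and the lowest untreated value. Differences in brightness between arrays are part of such a comparison.

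A second H2A probe, of Hist1h2ai (H2ac13, A_52_P651235), gave 1.16, 0.52, 0.80 and 2.14. Its order over the arrays was the same as that of Hist1h2ak. The fitted ratio was 1.15 ± 0.16 (2.23-fold, adjusted p = 0.0163). For Hist1h2af (H2ac10, A_52_P498210) the ratios were 0.99, 0.52, 0.92 and 1.94, again with array 4 highest and array 2 lowest, and the fit gave 1.09 ± 0.16 (2.13-fold, adjusted p = 0.0195). Since the copies share sequence, these 3 probes need not be 3 separate transcripts.

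Hist1h1b (H1f5, A_51_P270949), one of the somatic linker histones, gave 1.15, 0.92, 0.46 and 1.99. Here array 3 was lowest, not array 2. Its fitted ratio was 1.13 ± 0.16 (2.19-fold, adjusted p = 0.016). The log2 intensity with GDF8 was 11.86, 11.94, 11.07 and 12.76, and without GDF8 10.70, 11.02, 10.61 and 10.76. The groups did not overlap, but the lowest GDF8 value, on array 3, came within 0.05 of the highest untreated value. These intensities too were not normalised between arrays.

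Array 4 carried the highest ratio of all 4 called probes and of 22 of the 43 tested members, against 23.6% of all probes tested, and of 15 of the 29 members saturated in no channel. On arrays 1 to 4 the median ratio of those 29 was 0.33, 0.09, 0.11 and 0.80, where the median over all probes was between -0.06 and 0.04. Array 4 also had the widest spread of ratios, with a standard deviation of 0.425 over all probes against 0.300 to 0.327. Without array 4 the same 4 probes were called, with smaller ratios of 0.86 to 0.99 (adjusted p between 0.0345 and 0.0441). Without array 1, 13 members were higher, the 4 and 9 more. With the 2 channels fitted as unpaired groups, none of the 43 was called, the 4 had adjusted p between 0.157 and 0.412, and 6 members were higher at an unadjusted p under 0.05.

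**Figure D1:**
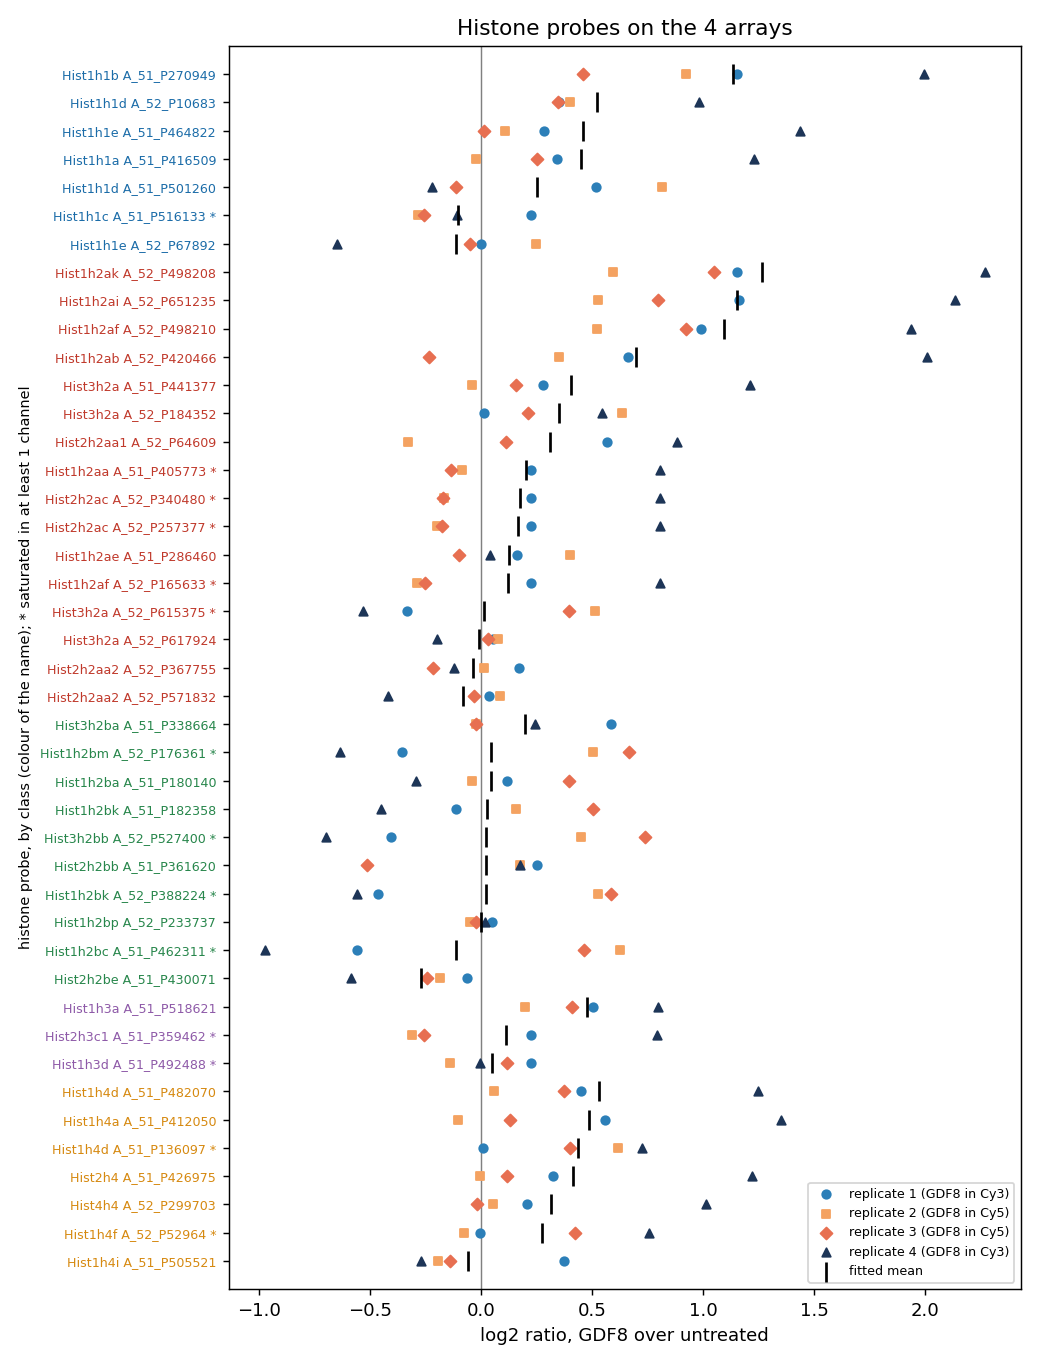
Log2 ratio of GDF8 over untreated (x axis) of each of the 43 tested histone probes (y axis, in order of ratio within a class) on each array, with marker shape for the array and a black bar for the fitted mean; an asterisk marks probes saturated in at least 1 channel. The 4 called probes have every array above 0 and array 4 near 2, and the fitted means of the H2B probes, in green, lie between -0.27 and 0.20.

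Across the 29 tested members saturated in no channel, the median fitted ratio was 0.31, against 0.02 over all such probes. It was 0.48 without array 1 and 0.19 without array 4. With all 43 it was 0.17, against 0.01 over all probes tested, and 0.27 and 0.11 without those arrays. The fit was above 0 in 34 of the 43 and below 0 in 9, where 53.7% of all probes were above 0. Ratios were above 0 on all 4 arrays for 10 members (7.69% of all probes) and below 0 on all 4 for 1 member (7.91%). By cluster, Hist1 had 27 tested probes, 4 of them higher, and a median of 0.47 over its 18 probes never saturated (0.67 without array 1 and 0.31 without array 4). Of 9 Hist2, 6 Hist3 and 1 Hist4 probes none passed limma's threshold with all 4 arrays. Over probes never saturated, the median was -0.01 for 6 of Hist2, between -0.11 and 0.11 when 1 array was left out, and 0.27 for 4 of Hist3, and the Hist4 probe stood at 0.31 (0.52 without array 1 and 0.11 without array 4). Without array 1, 11 Hist1 probes, 1 Hist2 probe (Hist2h4) and 1 Hist3 probe (Hist3h2a, A_51_P441377) were higher, so that the calls were then not all in Hist1. At an unadjusted p under 0.05, 2 Hist2 and 2 Hist3 probes were higher, 1 Hist2 probe was lower and the Hist4 probe was neither.

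Linker histones had 7 tested probes, 1 of them higher, with a median ratio of 0.45 over all 7 and over the 6 never saturated. The median of the 6 was 0.67 without array 1 and 0.30 without array 4. Besides Hist1h1b, Hist1h1d (H1f3, A_52_P10683) gave 0.35, 0.40, 0.35 and 0.98, a fit of 0.52 ± 0.12 that did not pass (adjusted p = 0.0918). Arrays 1 to 3 lay close together and array 4 far above them. Its other probe (A_51_P501260) did not repeat that pattern, at 0.52, 0.81, -0.11 and -0.22, with a fit of 0.25 ± 0.18. The probes of Hist1h1e (H1f4) also differed from each other. One (A_51_P464822) gave 0.28, 0.11, 0.01 and 1.44, a fit of 0.46 ± 0.18. The other (A_52_P67892), the lowest of the class, gave 0.00, 0.24, -0.05 and -0.65, a fit of -0.11 ± 0.13. Hist1h1a (H1f1) stood at 0.45 ± 0.15, carried by 1.23 on array 4. Hist1h1c (H1f2), whose mRNA is known to be also made outside S phase, stood at -0.11 ± 0.10 and was saturated in 3 channels of each group. Without array 1, 4 of the 7 H1 probes were higher.

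H2A had 16 tested probes, 3 of them higher. The median of the 11 never saturated was 0.35, with 0.22 without array 4 and 0.48 without array 1. Hist1h2ab (H2ac4) gave 0.66, 0.35, -0.24 and 2.01, a fit of 0.70 ± 0.22 that did not pass (adjusted p = 0.21). Its array 4 value lay among those of the called H2A probes, while its array 3 value lay below 0. Hist1h2ae (H2ac8) stood at 0.13 ± 0.11. Outside Hist1 no H2A probe passed. Hist2h2aa1 (H2ac18) stood at 0.31 ± 0.11, and the probes of Hist2h2aa2 (H2ac19) at -0.04 ± 0.10 and -0.08 ± 0.11. The 4 probes of Hist3h2a (H2aw) stood at 0.40 ± 0.15, 0.35 ± 0.13, 0.01 ± 0.09 and -0.01 ± 0.09. The probes near 0 were limited in signal. A_52_P615375 was saturated in 1 channel of each group and had a dye effect of 0.44. A_52_P617924 was dim, at a log2 intensity of 8.075 with GDF8, and well above background on 3 GDF8 arrays. A_51_P441377, the highest of the 4, gave 0.28, -0.04, 0.16 and 1.21, while A_52_P617924, the lowest, gave 0.05, 0.08, 0.03 and -0.20. Without array 1, 5 of the 16 were higher.

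H2B had 10 tested probes and none past limma's threshold (at an unadjusted p under 0.05, none higher and 1 lower). Their median was 0.02 (between -0.04 and 0.07 when 1 array was left out), with fits from -0.27 to 0.20. Of the 10, 4 were saturated in at least 1 channel. The 6 never saturated also had a median of 0.02 (-0.035 to 0.074 when 1 array was left out). In 7 of the 10 the sign of the ratio turned with the dye. The probes of Hist1h2bp and Hist3h2ba were dim, at a log2 intensity of 8.12 with GDF8. No H2B probe was above 0 on all 4 arrays, and array 4 was the highest for none. The lowest member of all was Hist2h2be (H2bc21), at -0.06, -0.19, -0.25 and -0.59, the only member below 0 on every array. Its fit in limma was -0.27 ± 0.11, which did not pass (adjusted p = 0.394). The highest H2B probe, Hist3h2ba (H2bu2), gave 0.59, -0.02, -0.02 and 0.24, a fit of 0.20 ± 0.10. Hist2h2bb (H2bc18) gave 0.25, 0.18, -0.52 and 0.18, a fit of 0.02 ± 0.13, with array 3 alone below 0. Hist1h2ba (H2bc1), the testis form of H2B, stood at 0.04 ± 0.12. H1, H2A and H4 probes were not tested against H2B probes as classes.

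Of 3 tested H3 probes none passed in limma (1 was higher at an unadjusted p under 0.05), and a single one was never saturated. This probe, of Hist1h3a (H3c1), gave 0.51, 0.20, 0.41 and 0.80, all above 0, and a fit of 0.48 ± 0.10 (adjusted p = 0.0656). Hist1h3d (H3c4), with 3 GDF8 and 2 untreated channels saturated, stood at 0.05 ± 0.10. H4 had 7 tested probes, none past the threshold (4 higher at an unadjusted p under 0.05), and a median of 0.41 over all 7 and over the 5 never saturated. The median of the 5 was 0.64 without array 1 and 0.19 without array 4. The highest, Hist1h4d (H4c4, A_51_P482070), gave 0.45, 0.06, 0.37 and 1.25, a fit of 0.53 ± 0.14 (adjusted p = 0.147). Hist1h4a (H4c1) was at 0.48 ± 0.14, Hist2h4 at 0.41 ± 0.15 and Hist4h4 (H4f16, A_52_P299703) at 0.31 ± 0.14. In each of these 4 probes array 4 was the highest, at 1.01 to 1.35. Hist1h4i (H4c9) was the exception in the class, at 0.37, -0.20, -0.14 and -0.27, a fit of -0.06 ± 0.12. Without array 1, 4 of the 7 H4 probes and none of the 3 H3 probes were higher.

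The remaining 4 member probes were not tested. Those of Hist1h2be and Hist4h4 (A_51_P148860) were well above background on no array. The probe of Hist1h2ac was so on 2 arrays with GDF8 and on none without, and that of Hist1h1t, the testis linker histone, on 3 and 2 arrays.

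Signal limited many of these ratios. Of the 43 tested members 14 were saturated in at least 1 of the 8 channels (18.5% of all probes tested), and none of the 14 was called by limma (1 was higher at an unadjusted p under 0.05). Among probes never saturated, 4 of 29 members were higher, where 0.923% of all such probes were.

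A probe saturated in every channel still gave a ratio, much the same for all such probes on an array. The 239 probes saturated in all 8 channels had median ratios of 0.23, -0.31, -0.26 and 0.81 on arrays 1 to 4 and a median fit of 0.12. The 5 members saturated in a whole group followed those values, with medians of 0.23, -0.20, -0.18 and 0.81. They were Hist1h2aa, the testis form of H2A, 1 probe of Hist1h2af (A_52_P165633) and both probes of Hist2h2ac (H2ac20), all saturated in every GDF8 channel, and Hist2h3c1 (H3c14), saturated in every untreated channel. No fold is given for these 5. The gene Hist1h2af therefore had 1 probe that rose and 1 that could not be read. Probes saturated in all 8 channels were thus also high on array 4. The 4667 probes saturated in 1 to 7 channels had a median of -0.17 there. The 4 called probes were saturated in no channel.

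**Figure D2:**
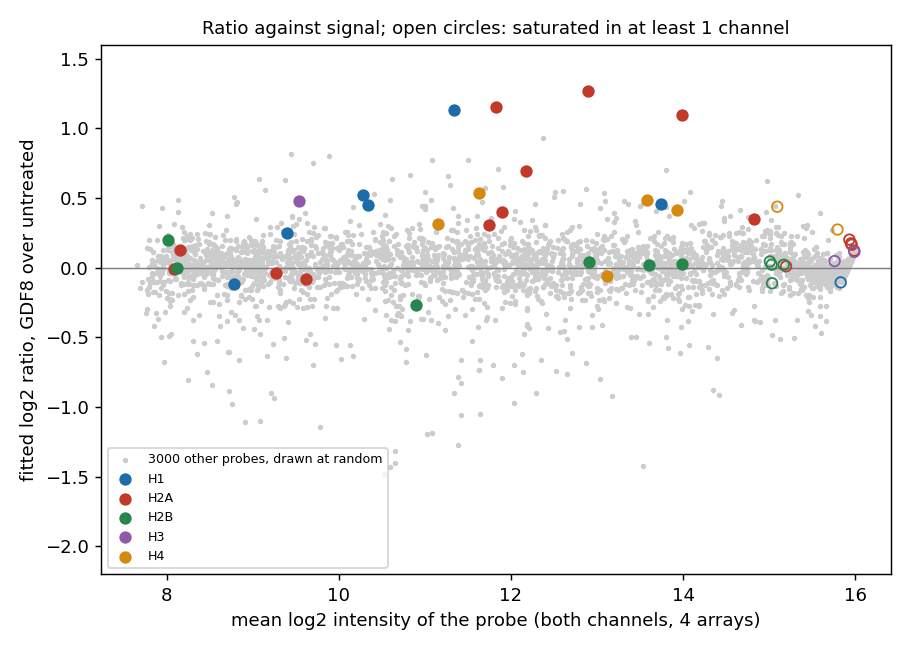
Fitted log2 ratio of GDF8 over untreated (y axis) against the mean log2 intensity of the probe over both channels and 4 arrays (x axis), for the 43 tested histone probes by class and 3000 other tested probes in grey. Open circles, for members saturated in at least 1 channel, gather at the right end of the x axis, and the 4 called probes are filled circles well to the left of that end.

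The sign of the ratio turned with the dye in 13 of the 43 tested members, a share close to the 29.8% of all probes. In 7 of the 13 the ratio was above 0 with GDF8 in Cy3 and below 0 in Cy5. They were the 5 members saturated in a whole group and the H2B probes of Hist1h2bp and Hist3h2ba. In the other 6 the ratio was below 0 with GDF8 in Cy3 and above 0 with GDF8 in Cy5, and 5 of the 6 were H2B probes: those of Hist1h2bc, Hist1h2bm and Hist3h2bb and both of Hist1h2bk. For Hist1h2bc (H2bc4) the ratios were -0.56, 0.62, 0.46 and -0.98. Arrays 1 and 4 lay below 0, array 4 the farthest, and arrays 2 and 3 above it, and the fit, which takes a dye term for each probe, gave -0.11 ± 0.11. Over the 6 probes the dye effect was 0.31 to 0.66 and the fitted ratio -0.11 to 0.04. Of the 6, 5 were saturated in at least 1 channel, and the part of saturation in their dye effect was not tested. The 4 called probes had dye effects of the other sign, -0.49 to -0.37, but kept a ratio above 0 in both orientations.

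**Figure D3:**
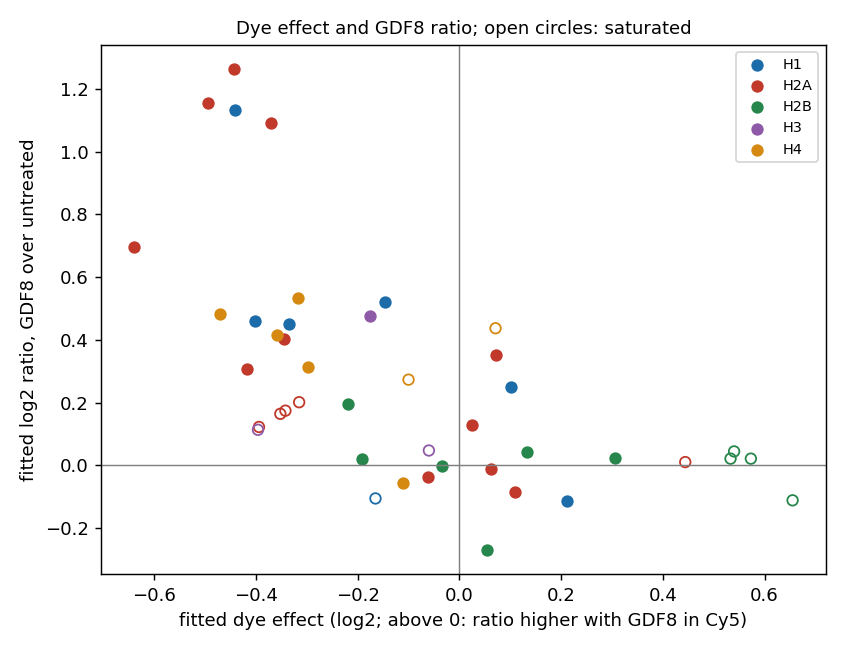
Fitted log2 ratio of GDF8 over untreated (y axis) against the fitted dye effect (x axis, log2, above 0 where the ratio was higher with GDF8 in Cy5) for the 43 tested histone probes by class; open circles are saturated in at least 1 channel. The called probes stand at the upper left with dye effects of -0.49 to -0.37, and 5 H2B probes stand at the right with ratios near 0.

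Along the Hist1 cluster, the 27 tested probes were placed by the order of their genes in RefSeq. The 55 genes of the cluster fall into 3 stretches of 18, 5 and 32 genes, set apart by gaps of over 200 kb. In the first stretch 3 of 5 tested probes were higher, those of H2ac13, H2ac15 and H1f5, and the median was 1.13. The other 2 probes there were H2B probes, of H2bc14 and H2bc22, at 0.04 ± 0.10 and 0.00 ± 0.09. That of H2bc14 was saturated in 1 GDF8 channel and had a dye effect of 0.54. That of H2bc22 was dim, at a log2 intensity of 8.12 in each group, and well above background on 3 GDF8 arrays. Whether neighbours in 1 stretch share a value thus cannot be read from these 2 probes. In the second stretch none of 3 probes was higher, and in the third 1 of 19 was, that of H2ac10. The stretches hold different classes and were not tested against each other.

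**Figure D4:**
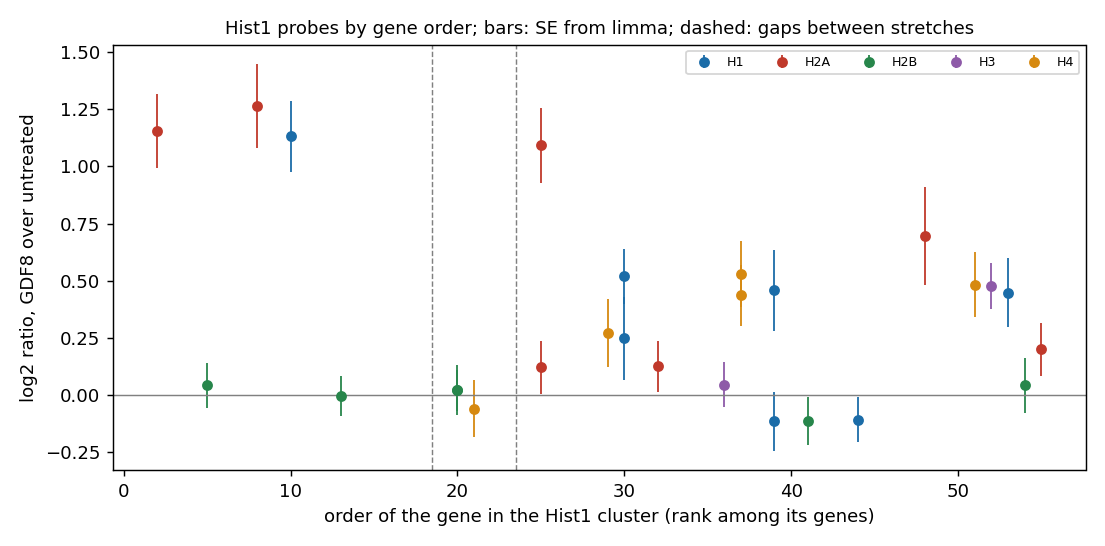
Fitted log2 ratio of GDF8 over untreated (y axis, with the standard error from limma as bars) of the 27 tested Hist1 probes against the rank of the gene among the 55 genes of the cluster (x axis), by class, with dashed lines at the gaps between stretches. In the first stretch the probes of H2ac13, H2ac15 and H1f5 lie above 1 with the H2B probes near 0 between and beside them.

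Genes that make, process and use histone mRNA were described from lists chosen with earlier results of these data known, with 1 tested probe a gene. The counts of each list stand against 0.771% higher and 1.95% lower of all probes tested. At an unadjusted p under 0.05 those shares were 5.47% and 6.69%. None of the 27 genes of histone mRNA synthesis and 3′ end processing passed in either direction, and their median was 0.07, against 0.01 over all probes. At an unadjusted p under 0.05, 1 was higher and none lower. That was Slbp, which binds the stem-loop, at -0.04, 0.80, 0.44 and -0.13, a fit of 0.27 ± 0.10 (limma, adjusted p = 0.334). Its ratio was above 0 only where GDF8 was in Cy5. Nfya, a subunit of the CCAAT-binding factor, stood at 0.16 ± 0.09 and Cstf2, a 3′ end cleavage factor, at -0.18 ± 0.10. None of the 16 genes of histone mRNA decay passed (2 higher and none lower at an unadjusted p under 0.05), with a median of 0.00. Lsm2, a ring protein bound at the 3′ end of decaying mRNA, gave 0.29, 0.41, 0.61 and 0.13, a fit of 0.36 ± 0.09 (adjusted p = 0.133). Dcp2, the decapping enzyme, stood at 0.25 ± 0.09 and the helicase Upf1 at -0.20 ± 0.10.

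Of 12 genes listed as replication-independent histone variants, 2 were higher, none lower and 10 did not pass. Whether each of the 12 is made outside S phase in these cells was not tested. In 6 of the 12, among them H3f3a, H3f3b, H2az1 and H2az2, at least 1 channel was saturated. The median over all 12, 0.12, is that of fully saturated spots. The other 6 had a median of 0.21 (0.18 to 0.25 when 1 array was left out). Cenpa, the H3 variant of centromeres, gave 1.06, 0.95, 0.72 and 1.00, a fit of 0.93 ± 0.09 (1.91-fold, adjusted p = 0.00832). Unlike the called histone probes it was about equally high on every array. H2ax, the H2A variant phosphorylated at DNA breaks, gave 0.87, 0.45, 0.14 and 1.104, a fit of 0.64 ± 0.10 (1.56-fold, adjusted p = 0.0252). Without array 2, without array 4 or without pairing by array, 1 of the 2 passed.

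Of 32 histone chaperones and import factors, 2 were higher, none lower and 30 did not pass, with a median of 0.05, or 0.13 over the 16 never saturated. At an unadjusted p under 0.05, 5 were higher and 1 was lower, against 5.47% and 6.69% of all probes. Asf1b, a chaperone that hands on H3 and H4, gave 0.69, 0.55, 0.64 and 0.75, a fit of 0.66 ± 0.09 (1.58-fold, adjusted p = 0.0155). Chaf1b, a subunit of the assembly factor that acts behind the replication fork, gave 0.91, 0.55, 0.29 and 1.17, a fit of 0.73 ± 0.10 (1.66-fold, adjusted p = 0.0162). Both lay above 0 on every array, Asf1b within a narrow range and Chaf1b within a wide one. Without array 2 or without array 4 neither passed, and without array 3 only 1 did.

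Of 34 genes of S phase entry and DNA synthesis, 2 were higher, none lower and 32 did not pass. The fit was above 0 in 31 of the 34, and the median was 0.24, or 0.31 over the 23 never saturated. At an unadjusted p under 0.05, 18 were higher and 1 was lower, against 5.47% and 6.69% of all probes. Ccna2, the cyclin of S phase, gave 0.55, 1.16, 0.70 and 0.83, a fit of 0.81 ± 0.11 (1.75-fold, adjusted p = 0.0163). Gins2, part of the replicative helicase complex, gave 0.62, 0.45, 0.51 and 0.46, a fit of 0.51 ± 0.09 (1.42-fold, adjusted p = 0.0366). In neither was array 4 the highest, unlike in the called histone probes. Without array 2 or without array 4 neither passed, and without array 1, without array 3 or without pairing by array only 1 did. The list's median over all 34 genes was 0.22, 0.31, 0.20 and 0.24 on arrays 1 to 4. Of these genes 11 were saturated in at least 1 channel. Over all 43 members the median was 0.226, 0.076, 0.115 and 0.723. All probes saturated in 1 to 7 channels had a median of -0.17 on array 4. The part of saturation in the list's value there was not tested.

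**Figure D5:**
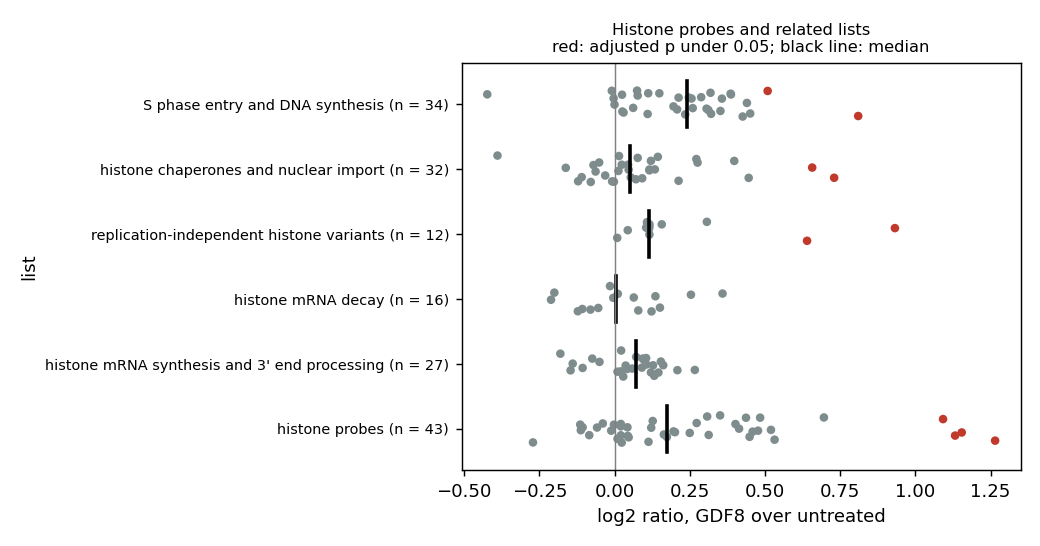
Fitted log2 ratio of GDF8 over untreated (x axis) of the 43 histone probes and of 1 probe per gene in 5 related lists (y axis, with the number tested), with the median as a black bar and adjusted p under 0.05 in red. The histone probes hold the highest values, above 1, and the S phase list is shifted to the right with a median of 0.24.

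The cells carried the markers of muscle. All 10 muscle markers were well above background on all 8 channels, 7 of them saturated in every untreated channel. Ckm (-0.93) and Actn2 (-1.39), the only markers among the 10 never saturated, were both lower. The other 8 were saturated in at least 2 channels of each group. Of the markers of other cell types, 2 of 5 for adipocytes, 2 of 4 for blood, 2 of 4 for endothelium, 2 of 4 for nerve and glia and 2 of 5 for osteoblasts were well above background on every GDF8 array, and none was called. The blood markers Ptprc and Adgre1 and the endothelial marker Pecam1 were well above background on no array. Over the arrays, 9.20% to 12.1% of spots were saturated in red and 0.745% to 5.49% in green, with the lowest green share on array 4. Between 63.3% and 78.8% were well above background.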

How the data were processed

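Total RNA from C2C12 cells was hybridised to 4 two-colour arrays on 1 slide. The deposited scanner files hold the intensity of each spot and its local background in both channels, flags and the log10 of red over green, per the file headers written by Agilent Feature Extraction 9.1.1.1. The authors' deposited table holds log2 ratios. It equalled the processed ratio turned to GDF8 over untreated, within 0.001, in 100% of 40929 single-spot probes, with column medians of 0.14, -0.09, -0.11 and 0.09, so it was not centred. It had 0 columns without a sample. The deposited flags are other values of 0 or 1. Per the series' design text, the authors used GeneSpring with an unpaired test, at p under 0.05 and at least 1.6-fold.

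Mean signals were corrected by normexp (offset 50) and normalised within arrays by loess in limma 3.58.1 (R 4.3.3), with control spots at weight 0, outlier spots left out and spots of a probe averaged. The fit had a GDF8 and a dye term, with p-values adjusted by Benjamini-Hochberg over 26579 probes. Each ratio lies within an array, so GDF8 and untreated RNA are paired by array. With 4 arrays, the smallest two-sided p of an exact sign-flip test is 0.125. The number of arrays limits the precision.

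The members and lists were chosen with earlier results of these data known. Named were all probes past the threshold, in each class those with the highest ratio, lowest ratio and smallest p, all tested probes of Hist2 to Hist4, and of each list the genes past the threshold or the 3 with the smallest p. Other members were named after their values were seen. Symbols came from RefSeq (GRCm38.p6) by accession for 36 member probes and by synonym for 11. Alternatives covered background correction, normalization, pairing, the dye term, filters, saturation, probe choice, the deposited table, the methods' t-test, arrays averaged in pairs (1 with 2, 3 with 4, each pair with both dye orientations) and leaving out each array. Counts by class and list under these, and medians over probes never saturated, were chosen after seeing the data.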

Additional observations from a re-analysis of the deposited data

Results flagged for a closer look

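Over 43 member probes and 5 class medians, 3 probes had 1 array far from the other 3, by a gap to the nearest array that, as a share of the range, was above Dixon's critical value for 4 values. Chance alone gives about 1 in 20, and 3 of the 48 searched is close to that share. For Hist1h1d (A_52_P10683) the share was 0.916, with array 4 (0.98) above the others (0.35 to 0.40). For Hist3h2a (A_52_P617924) it was 0.83, with array 4 (-0.20) below the others (0.03 to 0.08). For Hist2h2bb (A_51_P361620) it was 0.903, with array 3 (-0.52) below the others (0.18 to 0.25). None of the 3 was past the threshold.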

How the results depend on the processing

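The count of 4 histone probes higher was 0 without pairing by array (no replicate block) and 0 under the methods' t-test after Benjamini-Hochberg, where the adjusted p of the 4 was 0.472 to 0.766 and 3 were higher at an unadjusted p under 0.05. At the methods' unadjusted threshold and 1.6-fold it was 3. Leaving out 1 array gave 4 to 13, with 13 only without array 1, where array 4 alone had GDF8 in Cy3. The other alternatives gave 3 to 6, and none was lower under any. The median member ratio stayed above 0, from 0.11 without array 4 to 0.31 with probes never saturated. Hist1h2ai did not pass without the dye term, nor Hist1h2af with arrays averaged in pairs. Under median centring Hist1h2ab and Hist1h4d also passed. The cause of these changes was not tested.

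Over all probes, 205 higher and 519 lower became 64 and 289 without pairing and 88 and 347 without the dye term. Under the methods' t-test they were 87 and 353 before adjustment and 25 and 76 after it. With arrays averaged in pairs they were 28 and 196. They were 152 and 443 without array 1, 30 and 185 without array 2, 155 and 412 without array 3, and 60 and 211 without array 4. Members near 0, none of them called, changed sign, and the cause was not tested. Under median centring Hist2h2aa2 (A_52_P367755) became 0.036, Hist3h2a -0.076 (A_52_P615375) and 0.026 (A_52_P617924) and Hist3h2bb -0.048. With the deposited table Hist3h2a (A_52_P615375) became -0.067 and Hist3h2bb -0.037. Leaving out 1 array gave -0.28 to 0.048 for Hist1h1e (A_52_P67892), -0.20 to 0.031 and -0.11 to 0.034 for Hist2h2aa2 (A_52_P571832, A_52_P367755), -0.016 to 0.11 for Hist1h3d, -0.22 to 0.10 for Hist1h4i, -0.04 to 0.06 and -0.074 to 0.053 for Hist3h2a (A_52_P615375, A_52_P617924), -0.15 to 0.19 for Hist2h2bb and -0.052 to 0.094 for Hist3h2bb. Saturation limits the bright members, and 4 arrays limit all.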
